A study of Xenopus laevis with 4 samples.

Results

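The actin, keratin, septin, tubulin and other cortex cytoskeleton genes of the Xenopus laevis oocyte were followed in RNA of the vegetal cortex, set against RNA of the whole cell. A probe set belonged to them when its single gene symbol, with the ending .L or .S removed, began with arpc, actr, actn, capz, krt, sept, tmsb, flna, flnb, sptan, sptbn, diaph, tuba, tubb or tubg, or was actb, actg1, cfl1, pfn1, pfn2, ezr, msn, rdx, anln or vim. The rule uses names and no measured value, but it was chosen with earlier results of these data known. It found 107 probe sets of 83 symbols among 15491 probe sets that are not controls, of which 9304 carry a single symbol. The endings .L and .S mark homeologs, the gene copies on the long (L) and short (S) chromosome sets of this allotetraploid species.

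The 2 vegetal cortex samples came from full-grown stage VI oocytes that had been freed with collagenase and cut into an animal and a vegetal piece, after which yolk and cytoplasm were pressed off by hand to leave the vegetal cortex. The cortices were frozen in pooled batches. The 2 whole oocyte samples were intact stage VI oocytes, also isolated with collagenase, and each was taken from the same female as the cortex sample of the same number, with a different female for each number. Each sample was hybridised to 1 Affymetrix Xenopus array. The comparison asks which RNAs make up a larger or smaller share of the RNA of the vegetal cortex than of the whole oocyte. The whole oocyte contains the cortex, so the groups are a region of the cell and the cell as a whole.

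The cortex of an animal oocyte is a sheet of actin filaments under the plasma membrane, shaped by proteins that nucleate, branch, cap and crosslink the filaments. In the Xenopus oocyte a network of keratin filaments also lines the vegetal cortex, and microtubules serve as tracks on which some RNAs travel to the vegetal pole. Localised RNAs that later pattern the embryo and its germ line are held in this cortex. Where a protein sits and where its RNA sits are separate questions, and only RNA was measured here.

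All values are MAS5 signals, an intensity on a linear scale that combines the probes of a probe set and is scaled so that every array has the same trimmed mean. A change is therefore relative to the other RNAs of the sample and not an amount per cell. It is given as a log2 change of vegetal cortex over whole oocyte with its standard error (SE), fitted by limma on log2(signal + 19.11), n = 2 against 2. These bulk samples cannot tell apart more of a cell part or cell type from more RNA in it. As a check of the dissection, 9 of 10 tested probe sets of 9 named vegetal RNAs passed the test as higher in the cortex, with a median log2 change of 3.22. The 7 tested probe sets of oocyte markers gave 0 calls, and their log2 changes lay between -0.23 and 1.48. Of these, 6 were above 0, and their median was 0.35, beside -0.20 for all tested probe sets. Log2 signals of the 2 cortex arrays correlated with r = 0.939 and those of the 2 oocyte arrays with r = 0.973 across probe sets, so the cortex arrays differed more from each other. Between the groups, the cortex and oocyte arrays of female 1 correlated with r = 0.949 and those of female 2 with r = 0.936. The cortex arrays were thus about as close to the oocyte array of the same female as to each other.

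Of the 107 cytoskeletal probe sets, 62 probe sets of 48 symbols were bright enough to test, with a mean signal over the 4 arrays of at least 271.5. The other 45 were dimmer. The limit hardly interacted with the groups, since 61 of the 62 had both group means above it. None of the 62 probe sets passed the test, with 0 above and 0 below the whole oocyte at a limma adjusted p of 0.05. Among all 9295 tested probe sets, 3.31% were called higher and 0% lower. By the unadjusted p at the same threshold, 2 cytoskeletal probe sets were higher, those of capza1.L and septin7.L, where the share over all tested probe sets was 8.02%. By that measure 3 were lower, those of krt18.1.S, arpc5.L and tubal3.1.L, where the share over all was 4.62%. With the female as a replicate block, 0 cytoskeletal probe sets were called in either direction, beside 3.82% of all tested probe sets higher and 0% lower. The smallest adjusted p of the 62 was 0.104, that of capza1.L.

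The typical cytoskeletal RNA had nearly the same signal in the cortex and in the whole oocyte. The median log2 change of the 62 probe sets was -0.25, with -0.20 in female 1 and -0.23 in female 2. Over all 9295 tested probe sets the median was -0.20, with -0.27 in female 1 and -0.12 in female 2. A change under 2-fold was estimated for 58 of the 62, or 93.5%, against 88.3% of all tested probe sets. The 95% interval of the change excluded a 4-fold difference in either direction for 58 and a 2-fold difference for 14. Over all 9295 tested probe sets these numbers were 8032 for 4-fold and 1195 for 2-fold. Values below 0 were given by 45 of the 62 (72.6%) and by 65.7% of all tested. The change had the same sign in both females for 10 probe sets above 0 and 33 (53.2%) below 0. Over all 9295 tested, 1931 were above 0 in both females and 4366 (47.0%) below 0 in both. Both cortex arrays lay above both oocyte arrays for 5 of the 62, where the share over all tested probe sets was 14.7%. They lay below both for 22, or 35.5% of the 62, near the 31.8% of all tested. A difference of at least 2-fold in both females was met by 1 probe set above 0, that of capza1.L, beside 5.61% of all tested, and by 0 below 0, beside 0.549% of all tested.

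**Figure D1:**
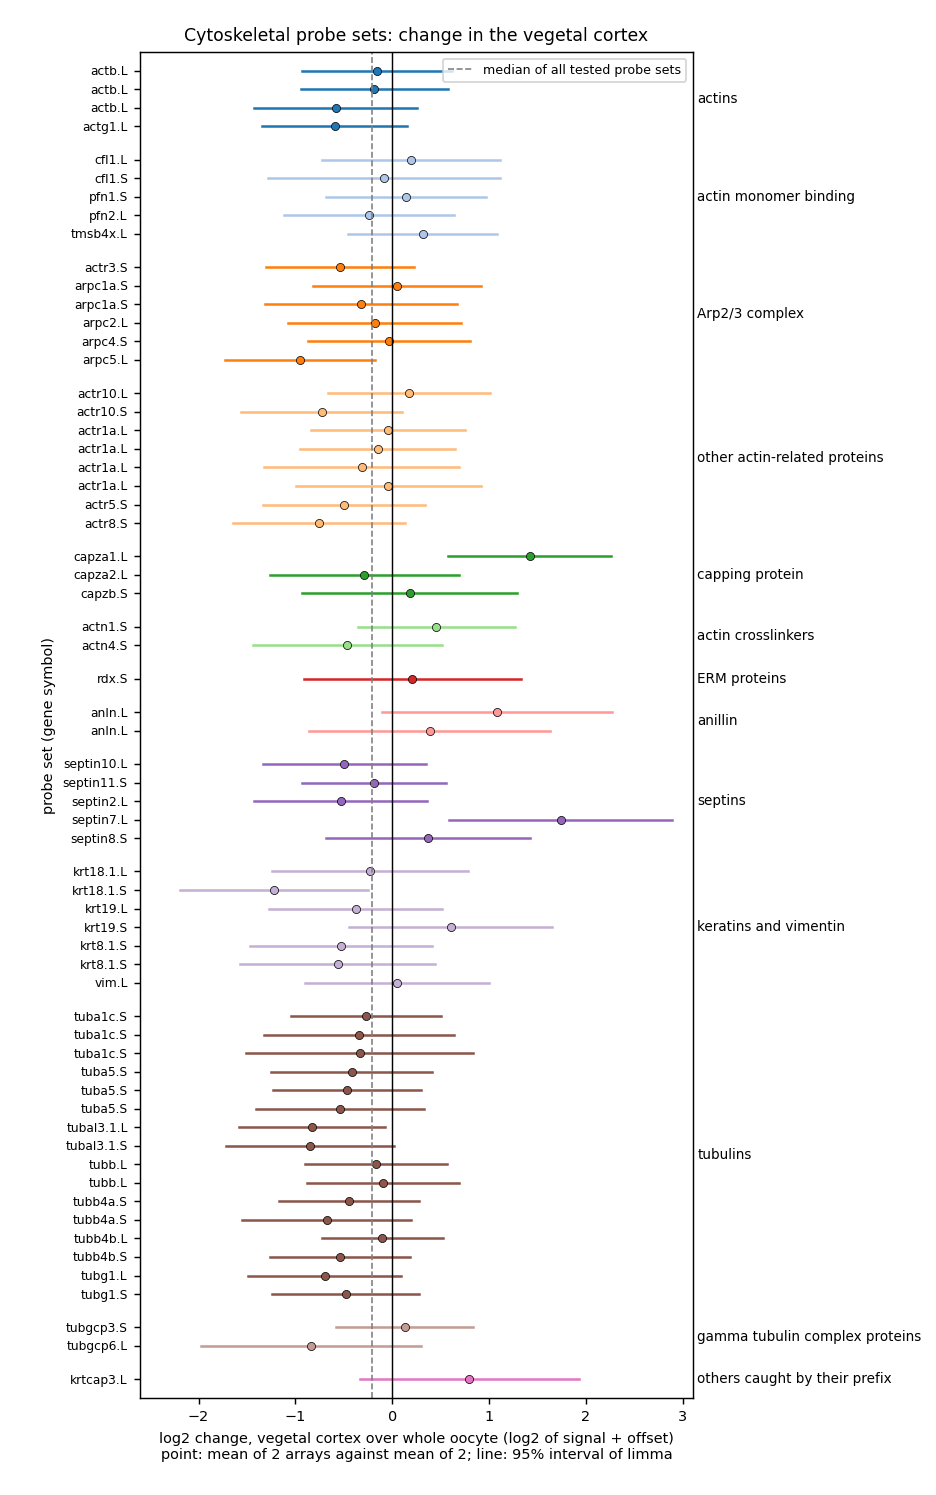
Log2 change of vegetal cortex over whole oocyte for each of the 62 tested cytoskeletal probe sets, grouped by role and named by gene symbol. Points are the estimates from 2 cortex and 2 oocyte arrays, lines are 95% intervals from limma, and the dashed line is the median of all tested probe sets (-0.20). Most points lie between -1 and 0.5, with septin7.L (1.74) and capza1.L (1.42) at the top and krt18.1.S (-1.22) at the bottom.

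Cytoplasmic actins were among the brightest members and lay at or somewhat below their whole oocyte signals. The probe set of actg1.L, which encodes cytoplasmic gamma-actin, read 15863 and 9341 in the cortex, against 18654 and 18173 in whole oocytes. Both cortex arrays were lower than both oocyte arrays, and the second cortex array was the lowest of the 4. The log2 change was -0.60 ± 0.32 (SE; 95% interval -1.34 to 0.15; limma adjusted p = 0.488). Of the 3 probe sets of actb.L, cytoplasmic beta-actin, the brightest read 10435 and 6460 in the cortex, against 9666 and 8688 in whole oocytes, and its log2 change was -0.16 ± 0.34. A second bright probe set read 9499 and 6568 in the cortex, against 10269 and 7855 in whole oocytes, with a log2 change of -0.18 ± 0.33. In both, the cortex arrays lay on either side of an oocyte array and the groups overlapped. The dimmest actb.L probe set read 786.6 and 806.6 in the cortex, against 1239 and 1170 in whole oocytes, which did not overlap, with a log2 change of -0.58 ± 0.37 (limma adjusted p = 0.534). Actin genes are alike in sequence, and how far these probe sets read RNA of another actin gene was not tested. Without the first cortex array the log2 change of actg1.L was -0.98, in a fit where 1 cortex array stood for the group. By female the change of actg1.L was -0.23 in female 1 and -0.96 in female 2.

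Genes for proteins that bind single actin subunits had overlapping signals in both groups. Thymosin beta-4, which holds actin monomers in reserve, is encoded by tmsb4x.L, and its probe set read 4559 and 6160 in the cortex, against 3979 and 4571 in whole oocytes. The groups overlapped by a small margin, and the log2 change of 0.31 ± 0.33 had the same sign in both females. Cofilin, which severs filaments and returns their subunits, was measured for both copies. The cfl1.L probe set read 6461 and 3515 in the cortex, against 4938 and 3523 in whole oocytes (log2 change 0.19 ± 0.40). The cfl1.S probe set read 6064 and 2189 in the cortex, against 5078 and 2952 in whole oocytes (log2 change -0.09 ± 0.52). For both copies the first array of each group was the higher one. Profilin loads actin subunits onto growing filament ends. The pfn1.S probe set read 1868 and 1961 in the cortex, against 1998 and 1503 in whole oocytes (log2 change 0.14 ± 0.36), and that of pfn2.L read 6431 and 3487 in the cortex, against 5140 and 6082 in whole oocytes (log2 change -0.24 ± 0.38). The limma adjusted p of these 5 genes was 0.706 or higher, and none of the 5 separated the groups.

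The Arp2/3 complex nucleates new filaments as branches on existing ones. Its subunit genes were measured by 7 probe sets, of which 6 were tested, with a median log2 change of -0.25 and values of -0.95 to 0.05, of which 5 were below 0 (4 under median centring and 4 under quantile normalization, and 3 without the first cortex array). The median over all tested probe sets was -0.20, and 65.7% of them were below 0. The lowest was arpc5.L, with 2725 and 2173 in the cortex, against 4614 and 4854 in whole oocytes. Both cortex arrays were far below both oocyte arrays, and the arrays of each group were close together. The group means were 2449 ± 390.5 in the cortex and 4734 ± 169.2 in whole oocytes (SD, n = 2 each), and the log2 change was -0.95 ± 0.34 (95% interval -1.73 to -0.18), or a 1.94-fold lower signal. The limma adjusted p was 0.289, so this did not pass over the whole table. Its homeolog arpc5.S was too dim to test, with 162.4 and 116.6 in the cortex, against 84.6 and 83.4 in whole oocytes. Without the first cortex array the log2 change of arpc5.L was -1.12, and without the second it was -0.79. The actr3.S probe set, for the Arp3 subunit, also separated the groups, with 4059 and 4359 in the cortex, against 7203 and 5181 in whole oocytes (log2 change -0.54 ± 0.33, limma adjusted p = 0.529). The remaining subunits showed no such separation. The arpc4.S probe set read 2830 and 3491 in the cortex, against 2645 and 3928 in whole oocytes, with a log2 change of -0.04 ± 0.36. The brighter of 2 probe sets of arpc1a.S read 1324 and 1804 in the cortex, against 1701 and 1316 in whole oocytes (0.05 ± 0.38), and the other read 1142 and 919.9 in the cortex, against 1784 and 928.9 in whole oocytes (-0.32 ± 0.43).

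Other actin-related proteins share the actin fold but work elsewhere. Of their 8 tested probe sets, 7 had log2 changes below 0 (5 under median centring and 5 under quantile normalization), and in 5 both cortex arrays lay below both oocyte arrays, beside 31.8% of all tested. The 8 came from 5 symbols, and 4 of the 8 were probe sets of actr1a.L, so these are not counts of separate genes. The 5 include actr1a.L probe sets whose names differ only in the ending, with log2 changes of -0.15 and -0.04. The median log2 change of the 8 was -0.24, beside -0.20 for all tested, of which 65.7% were below 0. The product of actr10 belongs to the pointed end of dynactin, the partner of the dynein motor. The actr10.S probe set read 1608 and 2045 in the cortex, against 2636 and 3462 in whole oocytes, lower in both females by a similar amount (log2 change -0.73 ± 0.36; -0.71 in female 1 and -0.75 in female 2; limma adjusted p = 0.458). The actr10.L probe set read 1480 and 1309 in the cortex, against 1371 and 1109 in whole oocytes, where the groups overlapped (0.17 ± 0.37). The actr1a.L gene, for the actin-like filament of dynactin, had 4 tested probe sets with log2 changes of -0.32 to -0.04. The products of actr5 and actr8 are nuclear and belong to the INO80 chromatin remodelling complex. The actr8.S probe set read 1884 and 1432 in the cortex, against 3499 and 2231 in whole oocytes, without overlap (log2 change -0.76 ± 0.39, limma adjusted p = 0.467). That of actr5.S read 1375 and 1759 in the cortex, against 2461 and 1967 in whole oocytes, also without overlap (log2 change -0.50 ± 0.36, limma adjusted p = 0.583).

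The highest value among the actin genes was that of capza1.L, which encodes an alpha subunit of capping protein, the heterodimer that closes the fast-growing end of a filament. Its probe set read 2859 and 2125 in the cortex, against 879.0 and 945.9 in whole oocytes. Both cortex arrays were more than 2-fold above both oocyte arrays, and the difference was seen in each female (log2 change 1.68 in female 1 and 1.15 in female 2). The means were 2492 ± 518.9 in the cortex and 912.4 ± 47.3 in whole oocytes (SD, n = 2 each). The fitted log2 change, and not the ratio of these means, gave a 2.67-fold higher signal with a 95% interval of 1.49 to 4.78. The log2 change of 1.42 ± 0.37 had a limma adjusted p of 0.104, and of 0.0799 with the replicate block, and so did not pass. Without the second cortex array the log2 change was 1.63. The partner genes had smaller values. The second alpha subunit gene, capza2.L, read 984.2 and 1804 in the cortex, against 1396 and 1908 in whole oocytes (log2 change -0.29 ± 0.42). The beta subunit gene capzb.S read 1393 and 600.3 in the cortex, against 925.6 and 704.7 in whole oocytes (log2 change 0.18 ± 0.48). Both overlapped between the groups, with cortex values spread widely. The difference between the subunits' changes was not tested.

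Alpha-actinin crosslinks actin filaments. The actn1.S probe set read 3018 and 4278 in the cortex, against 2517 and 2725 in whole oocytes, higher on both cortex arrays (log2 change 0.45 ± 0.35, limma adjusted p = 0.605). For the other non-muscle gene, actn4.S, the signals were 1597 and 826.2 in the cortex, against 1730 and 1464 in whole oocytes, and the groups overlapped (log2 change -0.46 ± 0.43). The dim alpha-actinin probe sets, those of actn1.L, actn2.L, actn2.S and actn3.L, had mean signals of 18.3 to 101.7 and were not tested. Alpha-spectrin, a long flexible linker of the membrane skeleton, was covered by 4 probe sets of sptan1.L and sptan1.S, all dim, with mean signals of 7.16 to 53.0. The rule found no probe set for the filamins, the beta-spectrins, the diaphanous formins, ezrin or moesin. Radixin, which ties the membrane to actin filaments, was therefore the single member of its family, and rdx.S read 1292 and 2368 in the cortex, against 2217 and 1034 in whole oocytes. The females went opposite ways (log2 change -0.77 in female 1 and 1.18 in female 2), giving 0.21 ± 0.49 over both.

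**Figure D2:**
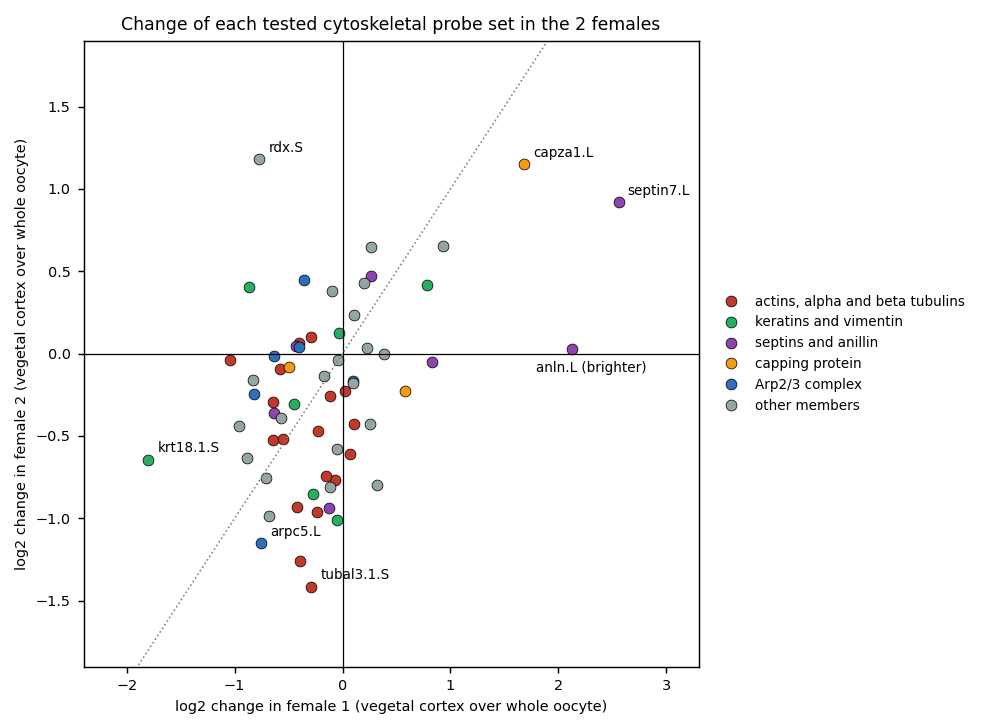
Log2 change of vegetal cortex over whole oocyte in female 1 (horizontal axis) and female 2 (vertical axis) for the 62 tested cytoskeletal probe sets, coloured by role. Each point is 1 probe set, and the dotted line marks equal change in both. In the lower left quadrant lie the 33 probe sets (53.2%, beside 47.0% of all tested) that were below 0 in both females. In the upper right lie the 10 above 0 in both, and septin7.L, capza1.L and anln.L lie far to the right with smaller values in female 2.

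Anillin and the septins assemble together at the cortex of dividing cells, where anillin binds actin, myosin and septins, and septins are GTP-binding proteins that polymerise into filaments. The brighter of 2 anln.L probe sets read 13572 and 4426 in the cortex, against 3091 and 4340 in whole oocytes. Nearly all of its difference lay in the first cortex array, since the second was barely above the higher oocyte array (log2 change 2.13 in female 1 and 0.03 in female 2). Over both the log2 change was 1.08 ± 0.52 (95% interval -0.11 to 2.27; limma adjusted p = 0.439). The dimmer anln.L probe set read 448.5 and 203.5 in the cortex, against 244.6 and 211.9 in whole oocytes, which overlapped, and it was also highest on the first cortex array (log2 change 0.39 ± 0.54). It was the single member that reached the signal limit through the cortex group. Without the second cortex array the log2 change of the brighter probe set was 1.88, and the value then rested on the first cortex array alone. Leaving out the first instead gave 0.27 for the brighter probe set.

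Among the septins, septin7.L had the highest log2 change of all 62 probe sets. It read 2013 and 846.2 in the cortex, against 326.1 and 438.7 in whole oocytes. Both cortex arrays lay above both oocyte arrays, but they differed from each other by more than the oocyte arrays did (means 1430 ± 825.3 in the cortex and 382.4 ± 79.6 in whole oocytes; SD, n = 2 each). The log2 change was 1.74 ± 0.50, or 3.34-fold with a 95% interval of 1.50 to 7.40, and it was 2.56 in female 1 and 0.92 in female 2. The limma adjusted p was 0.155, and 0.151 with the replicate block. Without the second cortex array the log2 change was 2.35, and without the first it was 1.12. SEPT7 is known from mammalian cells as the one septin that septin filaments of the common type require. The other septin genes had smaller values in both directions. The septin8.S probe set read 1535 and 3019 in the cortex, against 1276 and 2173 in whole oocytes (log2 change 0.37 ± 0.46), and septin11.S read 4430 and 5922 in the cortex, against 5971 and 5725 in whole oocytes (log2 change -0.19 ± 0.32). These overlapped between the groups. The signals of septin10.L were 1177 and 1600 in the cortex, against 1840 and 2061 in whole oocytes (log2 change -0.50 ± 0.37), and those of septin2.L were 1185 and 1049 in the cortex, against 1296 and 2028 in whole oocytes (log2 change -0.53 ± 0.39). Both were lower on both cortex arrays, and neither passed the test.

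**Figure D3:**
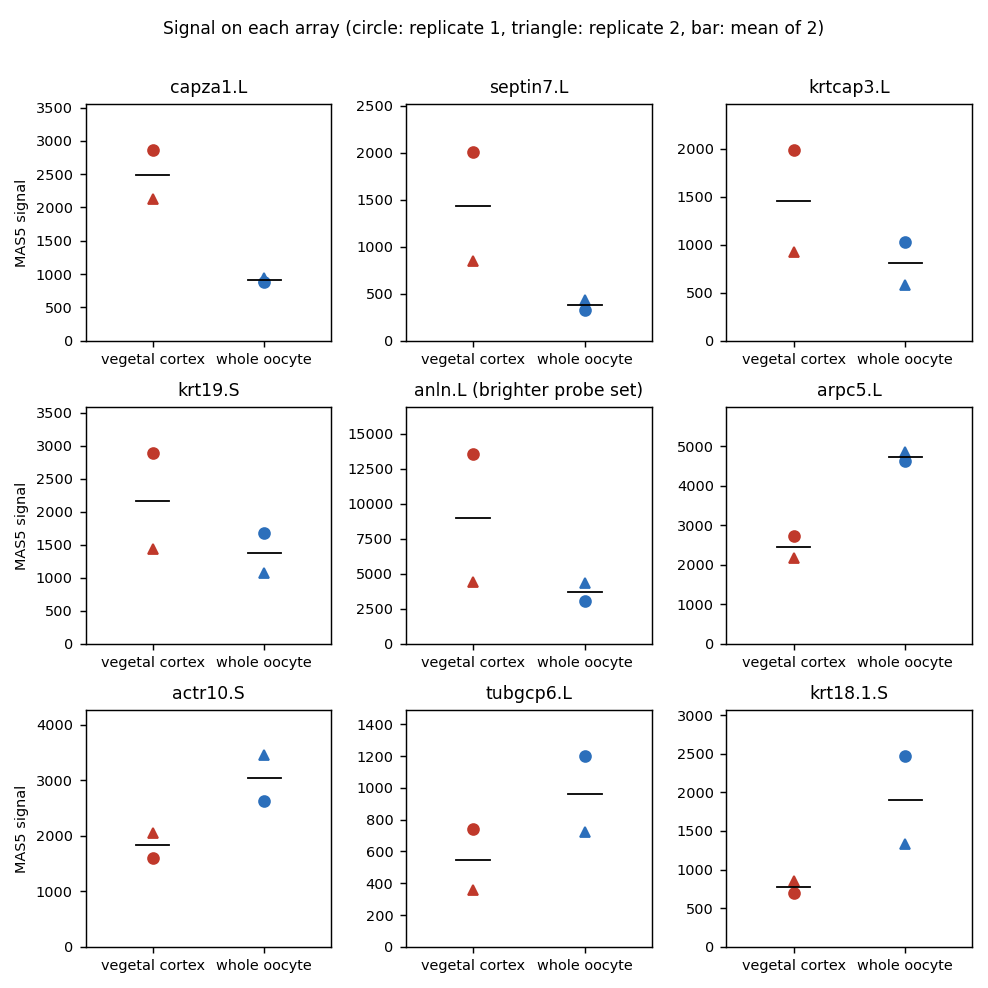
MAS5 signal on each array for single probe sets at the ends of the range of changes, with a linear vertical axis from 0, the vegetal cortex on the left and the whole oocyte on the right of each panel. Circles are replicate 1, triangles replicate 2 and bars the mean of 2 arrays. The cortex arrays lie above the oocyte arrays for capza1.L and septin7.L and below them for arpc5.L, actr10.S and krt18.1.S, and the brighter anln.L probe set is high on the first cortex array alone.

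Keratins had more probe sets than any other family here, and most of them were dim. Of 29 keratin probe sets with 23 symbols, 6 probe sets of 5 symbols could be tested. All 5 symbols were copies of krt8.1, krt18.1 and krt19, which are among the keratins of simple epithelia. The other 18 symbols, among them krt7, krt12, krt15, krt17 and krt70 copies, had dim probe sets only. Taken with vimentin, the 24 dim probe sets of intermediate filaments had mean signals of 5.40 to 80.7. Type I keratin 18 pairs with type II keratin 8 to form a filament. The krt18.1.S probe set read 694.9 and 847.9 in the cortex, against 2465 and 1335 in whole oocytes, the lowest log2 change of the 62 probe sets at -1.22 ± 0.42 (95% interval -2.20 to -0.25), or 2.33-fold lower. Both cortex arrays were below both oocyte arrays, and the oocyte arrays were themselves spread. The limma adjusted p was 0.282, with log2 changes of -1.80 in female 1 and -0.64 in female 2. Its homeolog krt18.1.L was brighter and read 2915 and 3072 in the cortex, against 5339 and 2318 in whole oocytes, so that its groups overlapped (log2 change -0.23 ± 0.44).

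Of the 2 tested probe sets of krt8.1.S, the brighter had 2357 and 1253 in the cortex, against 2441 and 2543 in whole oocytes (log2 change -0.53 ± 0.41), and the other had 1902 and 944.4 in the cortex, against 2308 and 1717 in whole oocytes (log2 change -0.56 ± 0.44). In each the second cortex array was the lowest of the 4. Without it the log2 changes were -0.0793 for the brighter and -0.0657 for the other, and without the first cortex array they were -0.98 for the brighter and -1.06 for the other, so both values turned on which cortex array was kept. Keratin 19, another type I keratin, had krt19.L at 4266 and 2877 in the cortex, against 5838 and 3562 in whole oocytes (log2 change -0.38 ± 0.39). For krt19.S the signals were 2897 and 1433 in the cortex, against 1672 and 1068 in whole oocytes, and although the groups overlapped, the value was above 0 in both females (log2 change 0.60 ± 0.46; 0.79 in female 1 and 0.42 in female 2; limma adjusted p = 0.597). Vimentin, the intermediate filament protein of mesenchymal cells, read 479.5 and 569.1 in the cortex, against 491.0 and 520.4 in whole oocytes for vim.L (log2 change 0.05 ± 0.41), and the probe set of vim.S was dim, with a mean signal of 75.6.

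Keratins and vimentin also occur in cells around the oocyte and in skin. Of 18 named genes of follicle and stromal cells, 10 were on the array with 18 probe sets, whose summed signal was 24564 and 34706 in the cortex, against 27831 and 25919 in whole oocytes. The 4 that were bright enough to test were all probe sets of fn1.S, with log2 changes of -0.01 to 0.16. Most of the sum was fn1.S, whose brightest probe set read 12892 and 18394 in the cortex, against 14285 and 13428 in whole oocytes. The sum therefore says little about the other genes of that list. Blood genes summed to 1267 and 3171 in the cortex, against 1906 and 1665 in whole oocytes, over 7 probe sets of 6 genes. In a list of epidermis and muscle genes, the 7 probe sets of 4 genes summed to 22297 and 26033 in the cortex, against 11891 and 12574 in whole oocytes. Most of that sum was cdh3.L, a cadherin that the Xenopus oocyte itself makes, with 16732 and 23150 in the cortex, against 8863 and 9475 in whole oocytes (log2 change 1.10 ± 0.29, limma adjusted p = 0.118). Its homeolog cdh3.S had a log2 change of 0.87 ± 0.36 (limma adjusted p = 0.377). The muscle gene ckm.L went the other way in value, with 1742 and 11.2 in the cortex, against 1024 and 1219 in whole oocytes, and there the second cortex array stood far below the other 3 (log2 change -2.30 ± 1.50, limma adjusted p = 0.547). The smallest signal of any probe set that is not a control was 0.319, so a signal above 0 does not show that the RNA of a marker was present. The part of such cells in the keratin and vimentin values was not tested.

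All 16 tested tubulin probe sets, from 10 symbols, had a log2 change below 0, beside 65.7% of all tested. Their median was -0.46, with a range of -0.85 to -0.09. All 16 stayed below 0 under median centring, where the highest was -0.0015, and under quantile normalization, where it was -0.0051. The median over all tested probe sets was itself -0.20. Without the second cortex array 13 of the 16 were below 0, with a median of -0.28 beside -0.24 for all tested. Without the first, 14 of the 16 were below 0, with a median of -0.65 beside -0.15 for all tested. In 12 of the 16 the value was below 0 in both females, where the share over all tested probe sets was 47.0%. In 9 both cortex arrays lay below both oocyte arrays, beside 31.8% of all tested, but 0 of them passed the test. Tubulin genes are alike in sequence, and how far these probe sets read RNA of each other's genes was not tested. Alpha- and beta-tubulin make up the microtubule subunit. The lowest values were those of the 2 homeologs of the alpha-tubulin gene tubal3.1. The tubal3.1.L probe set read 14628 and 8442 in the cortex, against 19267 and 20230 in whole oocytes (log2 change -0.83 ± 0.33; 95% interval -1.58 to -0.07; limma adjusted p = 0.358). That of tubal3.1.S read 9439 and 4781 in the cortex, against 11529 and 12779 in whole oocytes (log2 change -0.85 ± 0.38; limma adjusted p = 0.402). In both homeologs the cortex arrays were below the oocyte arrays, and the second cortex array was far lower than the first. Without the first cortex array the log2 change was -1.22 for tubal3.1.L and -1.34 for tubal3.1.S. By female it was -0.40 in female 1 and -1.26 in female 2 for tubal3.1.L. For tubal3.1.S it was -0.29 in female 1 and -1.41 in female 2.

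The 3 probe sets of tuba5.S gave log2 changes of -0.54 to -0.42, and the brightest of them read 14713 and 7715 in the cortex, against 15431 and 13168 in whole oocytes. For the beta-tubulin gene tubb4a.S the brighter probe set read 14957 and 9444 in the cortex, against 16656 and 15802 in whole oocytes (log2 change -0.45 ± 0.31), and the other read 10079 and 5303 in the cortex, against 13500 and 10129 in whole oocytes (log2 change -0.68 ± 0.38, limma adjusted p = 0.495). Both lay lower on both cortex arrays, and without the first cortex array the log2 change of the dimmer one was -1.14. By female the change of the dimmer one was -0.42 in female 1 and -0.93 in female 2. The tubb4b.L probe set read 14443 and 14779 in the cortex, against 14224 and 17300 in whole oocytes (log2 change -0.10 ± 0.27), and that of tubb4b.S read 6983 and 5660 in the cortex, against 10263 and 8118 in whole oocytes (log2 change -0.54 ± 0.31).

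Gamma-tubulin nucleates microtubules from a ring complex. The named-gene rule took the 4 brightest tubulins, and the gamma-tubulin genes are given here in addition, chosen after their values were seen. The tubg1.L probe set read 2575 and 2740 in the cortex, against 5009 and 3720 in whole oocytes (log2 change -0.70 ± 0.34, limma adjusted p = 0.456). That of tubg1.S read 2818 and 3400 in the cortex, against 4199 and 4463 in whole oocytes (log2 change -0.48 ± 0.33). Neither homeolog overlapped between the groups, and here the second cortex array was the higher one. Of the ring's other subunits, tubgcp3.S read 6455 and 6545 in the cortex, against 5529 and 6394 in whole oocytes (log2 change 0.13 ± 0.31). The tubgcp6.L probe set read 739.6 and 354.6 in the cortex, against 1199 and 722.1 in whole oocytes, below 0 in both females although the first cortex array was just above the second oocyte array (log2 change -0.84 ± 0.49; -0.68 in female 1 and -0.99 in female 2; limma adjusted p = 0.512). Without the first cortex array the log2 change of tubgcp6.L was -1.35, and without the second it was -0.33.

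**Figure D4:**
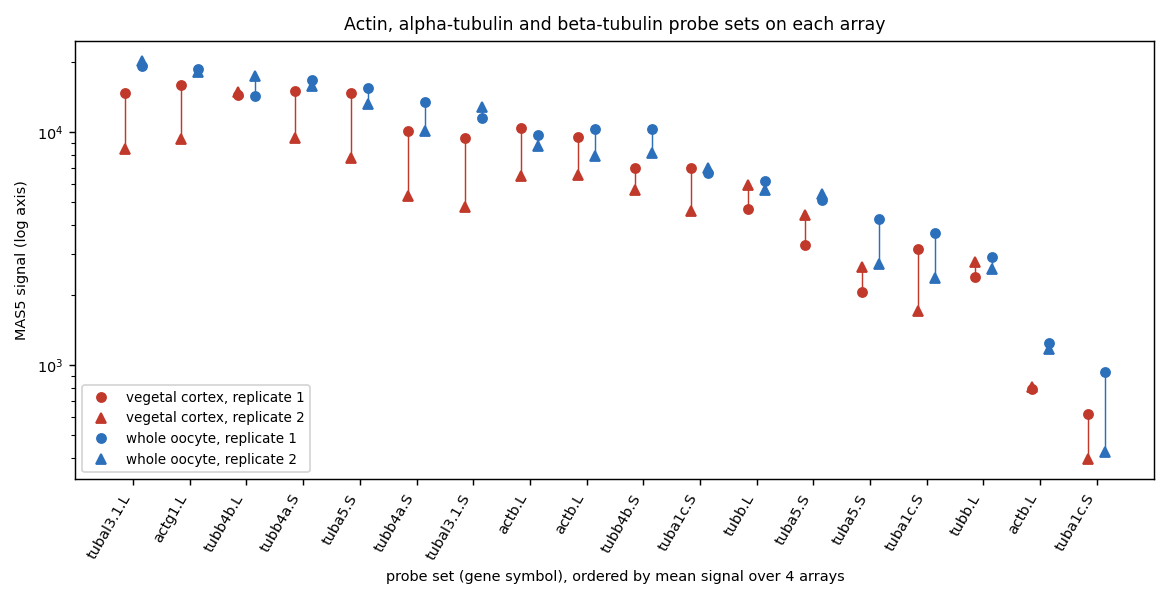
MAS5 signal on a log axis for each actin, alpha-tubulin and beta-tubulin probe set on each array, ordered by mean signal, with the cortex arrays drawn left of the oocyte arrays. Circles are replicate 1 and triangles replicate 2. The second cortex array is the lowest of the 4 for 12 of the 18 probe sets.

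The difference between the 2 cortex arrays was not the same in each actin and tubulin family. The median log2 difference of the second over the first array was -0.61 in the cortex and -0.12 in whole oocytes for the 4 actin probe sets, and -0.71 in the cortex and -0.08 in whole oocytes for the 8 of alpha-tubulins. For the 6 of beta-tubulins it was -0.13 in the cortex and -0.15 in whole oocytes, and for the 2 of gamma-tubulins 0.18 in the cortex and -0.17 in whole oocytes. Pooled over the 18 probe sets of actins and of alpha- and beta-tubulins, a grouping made after the values were seen, it was -0.62 in the cortex and -0.14 in whole oocytes. The second cortex array was the lowest of the 4 for 12 of these 18 (66.7%), for 29 of the 62 cytoskeletal probe sets (46.8%) and for 35.7% of all tested. All 18 had a log2 change below 0, beside 65.7% of all tested, with a median of -0.29 in female 1 and -0.49 in female 2. Over all tested probe sets the median difference between the cortex arrays was -0.03. Without the second cortex array 13 of the 18 lay below 0, with a median of -0.21 beside -0.24 for all tested. Leaving out the first instead gave 16 of the 18 below 0, with a median of -0.61 beside -0.15 for all tested.

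Where a gene had several tested probe sets, their changes had the same sign for 8 of 9 such symbols. The exception was arpc1a.S, whose values were -0.32 and 0.05. Several of these probe sets differ only in the ending of their name and may share probes, so they are not independent readings. The 8 include anln.L, whose dimmer probe set reached the signal limit through the cortex group. The matching share over all genes was not computed, and 65.7% of all tested probe sets lay below 0. None of the 9 had probe sets more than 1 log2 unit apart. The name prefixes also caught symbols that were not placed in any of these families. Of these, krtcap3.L, for a keratinocyte-associated membrane protein that is not a keratin, read 1984 and 926.9 in the cortex, against 1028 and 582.1 in whole oocytes (log2 change 0.79 ± 0.49; 0.94 in female 1 and 0.65 in female 2; limma adjusted p = 0.529). The groups overlapped, and in both groups the array of female 1 was the brighter one. Which gene the symbol sept5in.S stands for was not checked, and its probe set was dim, with a mean signal of 54.4.

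Both homeologs of 7 cytoskeletal genes were tested, which allowed the change of the .L copy to be set against that of the .S copy on the same arrays. The difference was tested by limma over all 636 genes with both copies bright enough, of which 1.26% passed and 0 of the 7 did. The greatest was that of krt18.1, whose .L copy exceeded its .S copy in log2 change by 0.99 ± 0.38 (SE; 95% interval 0.09 to 1.89; limma adjusted p = 0.487). For krt19 the difference of .L minus .S was -0.98 ± 0.39 (95% interval -1.89 to -0.07; limma adjusted p = 0.495). The estimates of these keratin genes had opposite signs, and neither passed the test. How far the probe sets of a copy read RNA of the other copy was not tested. The .L minus .S difference was 0.90 ± 0.43 for actr10 (95% interval -0.12 to 1.93; limma adjusted p = 0.679). It was 0.43 for tubb4b, 0.28 for cfl1, -0.22 for tubg1 and 0.02 for tubal3.1. The median size of the difference was 0.43 over the 7 genes and 0.32 over the 636.

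**Figure D5:**
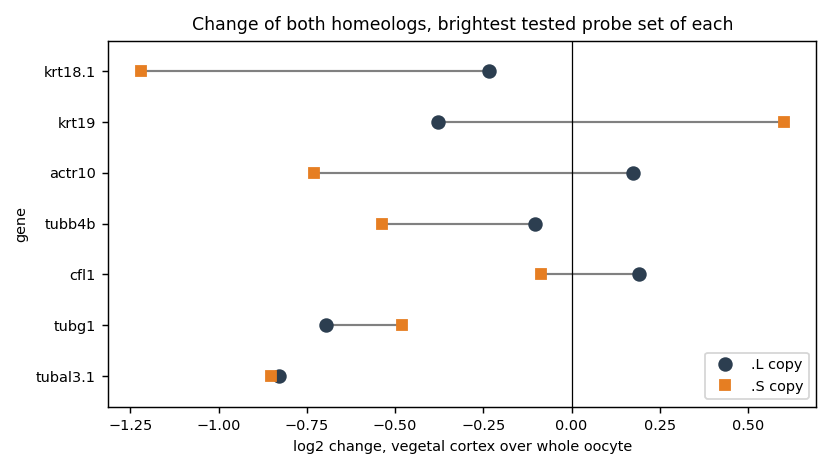
Log2 change of vegetal cortex over whole oocyte for the .L and the .S copy of the 7 cytoskeletal genes with both copies tested, using the brightest tested probe set of each copy. The copies lie about 1 log2 unit apart for krt18.1 (-0.23 for .L and -1.22 for .S) and krt19 (-0.38 for .L and 0.60 for .S) and close together for tubal3.1 (-0.83 for .L and -0.85 for .S).

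The 45 dim cytoskeletal probe sets give no usable comparison. The brightest among them were septin12.S with a mean signal of 186.1 and 2 probe sets of the alpha-tubulin gene tuba1cl.3.L with 180.1 and 169.1.

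Other genes of the actin cortex and of microtubules, named in a list of 100 genes that are no members, were measured by 106 probe sets of 64 genes, of which 69 could be tested. In this list 1 probe set was called higher and 0 lower, beside 3.31% and 0% of all tested probe sets. The median log2 change was -0.20, equal to that of all tested, with 25 above 0 and 44 below. The called gene was vasp.L, which encodes an Ena/VASP protein that speeds the growth of actin filament ends and keeps capping protein off them. Its probe set read 2443 and 2469 in the cortex, against 740.5 and 717.0 in whole oocytes. The arrays of each group were nearly equal, and the cortex stood 3.31-fold higher, by a like amount in each female (log2 change 1.73 ± 0.35; 95% interval 0.91 to 2.54; limma adjusted p = 0.0385; 1.70 in female 1 and 1.76 in female 2). The call was lost without the first oocyte array (log2 change 1.75, limma adjusted p = 0.344), without the second (log2 change 1.70, limma adjusted p = 0.356) and when dim probe sets were kept (limma adjusted p = 0.0726).

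The 3 brightest probe sets of that list belonged to microtubule regulators. The tpx2.S probe set, for a spindle assembly factor, read 15878 and 13669 in the cortex, against 22840 and 19471 in whole oocytes, lower on both cortex arrays (log2 change -0.52 ± 0.27, limma adjusted p = 0.471). The brighter probe set of its homeolog tpx2.L read 8322 and 13598 in the cortex, against 11459 and 11817 in whole oocytes, with overlap (log2 change -0.13 ± 0.33). A much dimmer tpx2.L probe set read 714.7 and 929.7 in the cortex, against 1492 and 948.3 in whole oocytes, without overlap (log2 change -0.54 ± 0.41, limma adjusted p = 0.601). Stathmin, which binds free tubulin, had stmn1.S at 25911 and 30850 in the cortex, against 19781 and 31088 in whole oocytes (log2 change 0.19 ± 0.30), a direction that turned under quantile normalization (-0.32).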

How the data were processed

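The authors deposited a linear intensity for each probe set on each array, computed by MAS5 according to the submitters' processing notes, which name no version here. Per the labels' protocols, RNA was amplified in 2 cycles and labelled with biotin, 1 colour. The trimmed mean (2% at each end) was 1500.15 on the cortex arrays and 1500.12 on the oocyte arrays, so the scaling was kept. MAS5 detection calls were not used here.

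Names came from the platform annotation, and all 107 member probe sets had a gene identifier found in the Xenopus_laevis_v10.1 gene table. An offset of 19.11 (the 10th percentile of signals) was added before log2, which understates folds of dim features. Testing was limited to a mean signal of 271.5 or more (the 40th percentile) and used limma 3.58.1 in R 4.3.3 (lmFit, and eBayes with an intensity trend; homeolog differences without a trend), two-sided, with Benjamini-Hochberg adjustment over all tested and a threshold of 0.05. On simulated data with independent noise, the run checked only that set log2 changes were recovered in the median. Those data held no pairing by female. The number of arrays limits the precision.

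Same-numbered arrays come from 1 female, per the design text and protocols, and their deviations from the group means correlated with r = 0.35. The description of cortex replicate 2 repeats the numbers of cortex replicate 1, and its title was followed. Members and lists were chosen with earlier results of these data known. Named were, per role, up to 4 tested genes, called ones first and then by mean signal, with their other homeologs and probe sets, the 4 highest and 4 lowest members that moved alike in both females, ranked by the smaller change, and the 3 greatest homeolog differences. Gene symbols outside the rule, such as cdh3.L and ckm.L, were named after their values were seen. Alternatives covered the block, offset, scaling, filter, variance trend, choice of probe set and each array left out.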

Additional observations from a re-analysis of the deposited data

How the results depend on the processing

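With 2 arrays a group, a call needs a large change relative to the spread, so smaller changes were not detectable here. No member was called under the replicate block, either other offset, quantile normalization, median centring, no filter, the stricter filter, no intensity trend, the brightest probe set per symbol or, an alternative chosen after seeing the data, without probe sets marked for shared probes. With the replicate block capza1.L kept its log2 change of 1.42 (limma adjusted p = 0.0799), and the block changed no call of a member. Leaving out 1 array at a time gave 0 to 3 members called higher and 0 to 6 lower. The 3 (anln.L, septin7.L and capza1.L) came without cortex replicate 2, where 666 probe sets in all were higher and 38 lower. The 6 (both tubal3.1 homeologs, tubb4a.S, actg1.L, tubgcp6.L and arpc5.L) came without cortex replicate 1, where 697 were higher and 673 lower. In these fits 1 cortex array stands for its group and is assumed to vary like the oocyte arrays. Over all tested probe sets, 125 were called higher without oocyte replicate 1 and 140 without oocyte replicate 2. Homeolog differences gave 0 calls among members under every alternative run; the planned fit without a trend was already the one reported, so a fit with a trend was added.

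The median log2 change of the members was -0.16 with median centring, -0.15 with no filter, -0.21 with the brightest probe set per symbol and -0.23 without probe sets marked for shared probes, and ranged from -0.36 to -0.12 when single arrays were left out. Several values turned sign, and not only those near 0, since the actn4.S value of -0.46 did so too. Median centring gave 0.0511 and 0.0512 for 2 actr1a.L probe sets, 0.0557 for arpc4.S and 0.0052 for cfl1.S, and quantile normalization gave 0.0368 and 0.0883 for the same probe sets, 0.0402 for arpc4.S and -0.32 for stmn1.S. With single arrays left out, the log2 change ranged from -0.77 to 0.13 and from -0.27 to 0.19 for actr1a.L, -0.72 to 0.14 for capza2.L, -0.42 to 0.77 for capzb.S, -0.83 to 0.37 for krt18.1.L, -0.0734 to 0.17 for vim.L, -0.68 to 0.20 for pfn2.L, -0.0617 to 0.34 for pfn1.S, -0.25 to 0.63 for cfl1.L and -0.82 to 0.64 for cfl1.S. It ranged from -0.34 to 0.75 for rdx.S, -0.40 to 0.0183 for septin11.S, -0.12 to 0.85 for septin8.S, -0.24 to 0.0386 for tubb4b.L, -0.88 to 0.0456 for 1 tuba5.S probe set, -0.93 to 0.00475 for actn4.S, -0.32 to 0.25 for arpc4.S, -0.17 to 0.27 and -0.79 to 0.14 for arpc1a.S, -0.50 to 0.19 and -0.45 to 0.0807 for the bright actb.L probe sets, -0.15 to 0.92 for the dimmer anln.L probe set, -0.14 to 0.51 for stmn1.S and -0.48 to 0.22 for the brighter tpx2.L probe set. The vasp.L call was lost with no filter (log2 change 1.73, limma adjusted p = 0.0726).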
